A study of Mus musculus with 6 samples.

Results

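Of the 23420 genes in the deposited RNA-seq tables, 332 carried a symbol made of Zfp and a number, not counting Zfp36, which encodes a CCCH-type mRNA decay factor. The 177 of these whose mean was 3 log2 CPM or more (the log2 of read counts scaled to a library of 1 M reads) in unstimulated B cells are described here. This limit equals 8 CPM, or about 142 reads per sample at a library size inferred from the values. The genes were thus chosen by their unstimulated values, and those values are given as a description only.

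The tables compared B cells from spleens of BALB/c WT mice after 4 h with the TLR9 agonist CpG ODN 1826 at 10 µg/ml, or after 4 h without stimulation. Each group had 3 samples, and the cells came from 3 mice of 7 to 11 weeks. In both groups the labels give female for replicates 1 and 2 and male for replicate 3. Each culture held 10 M cells, and the cells carried no transgene or deletion. The study used this comparison to define a set of TLR9-induced genes in B cells.

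Most Zfp genes encode proteins with C2H2 zinc fingers, small folds in which a pair of cysteines and a pair of histidines hold a zinc ion, and in which a short helix reads bases of DNA. Many of them also carry a KRAB domain, which recruits the corepressor Trim28 (KAP1) and, through it, histone methyltransferases, and which is known for the silencing of retroelements. KRAB zinc finger genes lie in clusters that grew by duplication, so neighbors are often near copies. The symbol is a naming convention, however, and some Zfp genes encode ribosome assembly factors, ubiquitin ligases, or RNA-binding proteins.

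The label was checked against GENCODE M21 gene models on GRCm38. All 177 symbols were matched, 4 of them to a newer symbol (Zfp828 to Champ1, Zfp259 to Zpr1, Zfp191 to Zfp24, and Zfp862 to Zfp862-ps). A KRAB A box was found in 88 proteins and not in 88 others, and Zfp862 is annotated as a pseudogene with no protein. A SCAN domain was found in 8. By a pattern of spaced cysteines and histidines, 94 proteins had 10 or more fingers, 52 had 5 to 9, and 30 had under 5.

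Finger sequences are shown for the KRAB and the non-KRAB gene with the largest rise and the largest fall. Each line is the coding strand of 1 finger on GRCm38, and capitals mark the codons of the cysteines and histidines that hold zinc. The Zfp566 finger lies in exon 4 of 4, at chr7:30078188-30078250 on the minus strand. The others lie on the plus strand, for Zfp296 in exon 3 of 3 at chr7:19579861-19579923, for Zfp667 in exon 5 of 5 at chr7:6304770-6304832, and for Zfp831 in exon 1 of 5 at chr2:174643966-174644028. Each finger was found by a search for a fixed spacing, so the spacing of the capitals is the same in all 4 lines. The bases between the capitals, which include those that code for the DNA-reading helix, differ.
Zfp566 (KRAB, higher with CpG): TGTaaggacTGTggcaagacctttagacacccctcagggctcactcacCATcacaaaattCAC
Zfp296 (no KRAB, higher with CpG): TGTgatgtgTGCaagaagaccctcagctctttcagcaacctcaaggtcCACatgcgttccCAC
Zfp667 (KRAB, lower with CpG): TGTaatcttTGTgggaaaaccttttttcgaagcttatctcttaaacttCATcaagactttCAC
Zfp831 (no KRAB, lower with CpG): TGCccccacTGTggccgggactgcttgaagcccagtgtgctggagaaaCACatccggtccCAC

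All 6 B cell marker genes were expressed, with a median of 9.09 log2 CPM, and 0 of 6 T cell and 0 of 4 NK cell markers reached 10 reads on average. Of the myeloid markers 2 of 5 did so, and of the pDC markers 3 of 4, where Siglech was below that value in every sample and Tcf4 and Irf8 are also B cell genes. The summed level of the B cell markers was lower with CpG, at 11.14 to 11.35 log2 CPM against 11.76 to 11.99 unstimulated. Of these genes Cd22, Cd79a, Cd79b, and Pax5 were lower (log2FC -2.40, -1.62, -1.17, and -0.32), and Ms4a1 was higher (0.77). The 3 plasma cell markers summed to 6.58 to 6.67 with CpG and 7.22 to 7.36 log2 CPM without. The summed pDC markers were higher with CpG (10.84 to 10.96 against 9.61 to 9.73 log2 CPM), where Irf8 had a log2FC of 1.65 while Tcf4 and Ccr9 were lower (-1.24 and -0.94). The summed NK markers were also higher (-0.48 to 0.49 against -2.28 to -1.68 log2 CPM). Among them, Klrb1c had means of -0.13 with CpG and -4.65 log2 CPM without, and Klrd1 had -4.62 and -2.76 log2 CPM. The summed T cell and myeloid markers overlapped between the groups. The part of these markers in the results was not tested.

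Replicate 2 of both groups stood apart in erythroid RNA. The heme synthesis gene Alas2 was at 8.17 (unstimulated) and 8.07 log2 CPM (CpG) in these samples and from 4.70 to 5.48 log2 CPM in the other 4, and the globin gene Beta-s was at 11.76 and 12.16 against 8.46 to 9.10 log2 CPM. The difference thus followed the replicate number in both groups. Quantile normalization gave all samples a common library size of 17.8 M reads on genes, so differences in depth are no longer in the values.

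Few expressed Zfp genes changed by 2-fold or more after 4 h of CpG. With a log2 fold change (log2FC) over 1 and an FDR under 0.05 in limma, 8 of 177 rose (4.52%), against 15.8% of the 11233 genes tested. With a log2FC under -1, 19 fell (10.7%), against 15.3%. Among the 7791 other genes with an unstimulated mean of at least 3, 11.7% rose and 14.8% fell. Without replicate 2 of both groups, the samples with more erythroid RNA, 9 rose and 21 fell. All 177 passed the filter on low values, which the selection on level had ensured. In bulk samples, fewer cells that express a gene and less RNA per cell cannot be told apart.

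At any size of change, 39 Zfp genes were higher with CpG at an FDR under 0.05 (22.0%), against 37.6% of all genes tested. Lower were 78 (44.1%), against 36.7%, and 60 did not pass (33.9%). Of the 7791 other genes with an unstimulated mean of at least 3, 37.9% were higher, 41.8% were lower, and 20.3% did not pass. The 3 CpG values lay above the 3 unstimulated values in 44 genes and below them in 84, where 39.1% and 38.6% of all genes tested did so. In the other 49 the groups overlapped. None of the 27 genes called at log2FC over 1 or under -1 had overlapping groups.

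The median log2FC of the 177 genes was -0.18, with quartiles at -0.57 and 0.16, against 0.00 for all genes tested and -0.04 for the 7791 other genes with an unstimulated mean of at least 3. Their spread was narrower, with an SD of log2FC of 0.71 against 1.12 and 0.96. A change of under 2-fold was seen in 150 of them (84.7%), against 68.6% of all genes tested. Of the 7791 other genes, 14.8% lay at or below a log2FC of -1 and 88.3% at or below 1. The balance of rises and falls differed with the rule. Genes chosen for a high unstimulated level cannot include those that CpG raised from below it. Had the CpG mean been used in its place, 167 genes would have been members, of which 12 rose and 9 fell, with a median log2FC of -0.06. That rule in turn leaves out genes that CpG lowered below the limit. Of the 94 Zfp genes under the unstimulated limit that could be tested, 10 rose (10.6%) and 21 fell (22.3%). Over all genes tested the shares were 15.8% and 15.3%. The median log2FC of the 94 was -0.25. The cause of the balance was not tested.

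**Figure D1:**
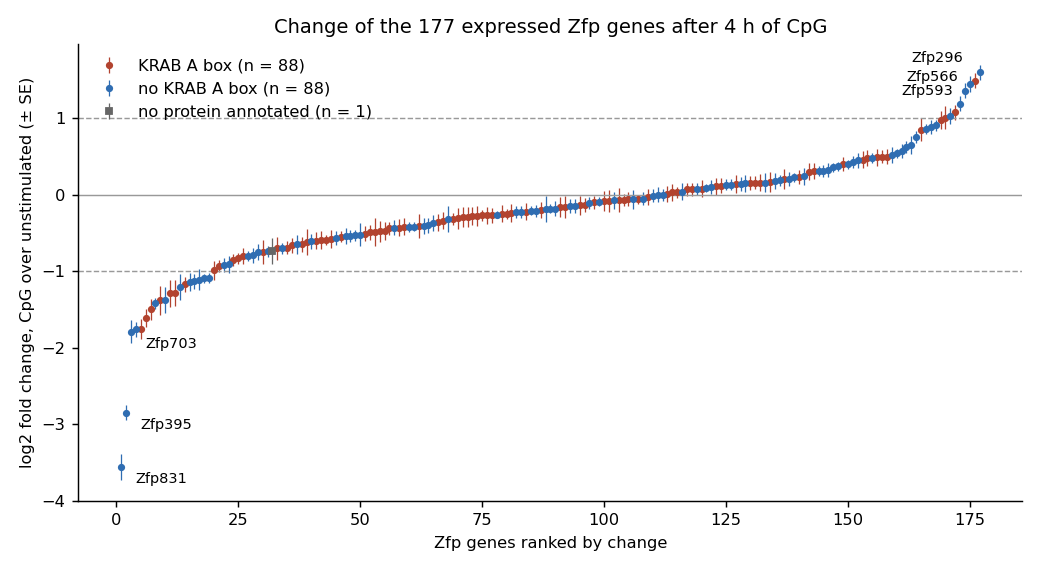
Log2FC of each of the 177 expressed Zfp genes (y axis, CpG over unstimulated, bars are the limma SE, n = 3 samples per group) against its rank (x axis), colored by the presence of a KRAB A box. Most points lie between the dashed lines at -1 and 1, and the lowest, Zfp831 at -3.56, lies farther from 0 than the highest, Zfp296 at 1.60.

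**Figure D2:**
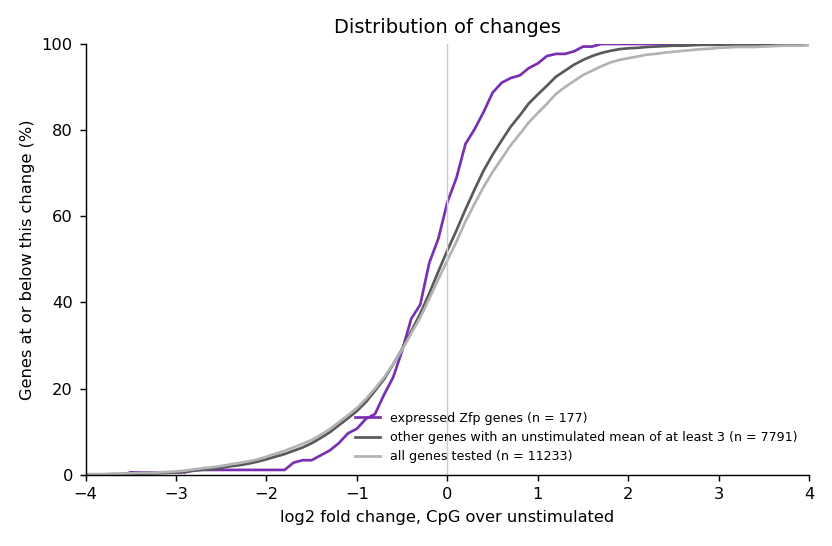
Percent of genes (y axis) with a log2FC at or below the value on the x axis, for the 177 expressed Zfp genes, the 7791 other genes with an unstimulated mean of at least 3, and all 11233 genes tested. The Zfp curve is steeper around 0, as 84.7% of these genes changed by under 2-fold.

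Among the genes that rose, Zfp296 had the largest change. It encodes a C2H2 protein known as a cofactor of Klf4 in reprogramming. Its level was 4.68, 4.84, and 4.78 log2 CPM in unstimulated replicates 1 to 3, and 6.44, 6.17, and 6.50 log2 CPM in the CpG replicates. Every CpG sample was thus higher, by a log2FC of 1.60 ± 0.10 (SE, n = 3 per group, FDR = 2.44e-07), or 3.04-fold. Of its exonic bases, 12.9% are also exonic in Gemin7 on the opposite strand, which was higher with CpG by a log2FC of 0.54, and the strand setting used in counting is not given in the sources used here.

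Zfp566, a KRAB gene on chromosome 7, was the next. It measured 3.09, 3.23, and 3.09 log2 CPM without stimulation and 4.61, 4.52, and 4.75 log2 CPM with CpG, and the groups were far apart. The log2FC was 1.49 ± 0.10 (SE, FDR = 5.61e-07), and 14.3% of its 75-base sequences also occur in other genes.

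Zfp593 encodes a factor that joins the pre-60S ribosomal subunit and helps its export from the nucleus. Its values were 3.79, 3.95, and 3.62 log2 CPM in unstimulated samples, and 5.33, 5.27, and 5.12 log2 CPM after CpG. The rise was 1.45 ± 0.10 (SE, FDR = 7.73e-07) on the log2 scale. Of its 75-base sequences, 61.5% also occur in other genes, so its value is uncertain. Of its exonic bases, 77.9% lie opposite exons of E130218I03Rik, which was near the level of no reads in both groups (-4.12 and -4.56 log2 CPM).

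Zfp770, with 12 fingers and no KRAB box, measured 4.15, 4.12, and 4.00 log2 CPM unstimulated and 5.63, 5.35, and 5.37 log2 CPM with CpG. The groups did not overlap, and the log2FC was 1.36 ± 0.10 (SE, FDR = 7.38e-07). Zfp828 (Champ1), which is needed for the attachment of chromosomes to spindle microtubules, was the most abundant of the genes that rose, going from 6.21, 6.10, and 5.95 to 7.47, 7.17, and 7.18 log2 CPM. Its log2FC was 1.19 ± 0.10 (SE, FDR = 1.71e-06).

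The other 3 that rose were close to the threshold of 1. Zfp930, a KRAB gene on chromosome 8, had a log2FC of 1.08 ± 0.10 (SE, FDR = 5.09e-06). For Zfp420, a gene with 19 fingers on chromosome 7, it was 1.03 ± 0.11 (SE, FDR = 1.11e-05). Zfp213, which has both a SCAN domain and a KRAB box, had 1.01 ± 0.15 (SE, FDR = 0.000124). Leaving out 1 sample brought Zfp420 to 0.97 (without CpG replicate 1 or unstimulated replicate 1) or 0.99 (without CpG replicate 2), and Zfp213 to 0.90 (without CpG replicate 3 or unstimulated replicate 2). Zfp213 also shares 49.9% of its 75-base sequences with other genes, and 56.6% of its exonic bases lie opposite other exons, so its value is uncertain.

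Zfp831 showed the largest fall. Its level was 5.0, 4.70, and 5.28 log2 CPM in unstimulated B cells and 1.21, 1.56, and 1.54 log2 CPM with CpG. The lowest unstimulated sample was thus still far above the highest CpG sample, and the log2FC was -3.56 ± 0.17 (SE, n = 3 per group, FDR = 5.85e-08), or 11.8-fold lower. Zfp831 lies at chr2:174643534-174710832, and only 2 fingers were found in its protein of 1628 residues.

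Zfp395 encodes a DNA-binding protein known as a regulator of the huntingtin promoter. It measured 5.72, 5.51, and 5.72 log2 CPM without stimulation and 2.86, 2.84, and 2.69 log2 CPM with CpG. This was a fall of 7.23-fold (log2FC -2.85 ± 0.10, SE, FDR = 1.70e-08). No other expressed Zfp gene changed by a log2FC of over 2 in size.

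Next were 4 genes with a log2FC between -1.79 and -1.61. Zfp703, a corepressor that binds Groucho proteins, went from 3.71, 3.89, and 4.01 to 2.25, 1.82, and 2.16 log2 CPM (log2FC -1.79 ± 0.15, SE, FDR = 2.18e-06). Zfp821 went from 4.71, 4.86, and 4.77 to 2.90, 3.17, and 2.99 log2 CPM (log2FC -1.76 ± 0.10, SE, FDR = 2.27e-07). These genes have few or no canonical C2H2 fingers, with 0 found in Zfp703 and 3 in Zfp821. Zfp667 and Zfp949, by contrast, are KRAB genes with 14 and 11 fingers. Zfp667 fell from 4.33, 4.19, and 3.99 to 2.44, 2.56, and 2.26 log2 CPM (log2FC -1.75 ± 0.13, SE), and Zfp949 from 3.98, 4.16, and 4.27 to 2.66, 2.52, and 2.40 log2 CPM (log2FC -1.61 ± 0.12, SE). In all 4 genes the groups were separate. Of the exonic bases of Zfp703, 13.5% lie opposite exons of Gm45371.

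Zfp292, a large zinc finger transcription factor, was the most abundant among the 10 genes with the largest falls. It measured 7.74, 7.68, and 7.87 log2 CPM unstimulated and 6.35, 6.30, and 6.38 log2 CPM with CpG, with little spread in either group. Its log2FC was -1.42 ± 0.07 (SE, FDR = 5.98e-08). Zfp691 had a log2FC of -1.38 ± 0.17 (SE, FDR = 3.76e-05), with a wider spread in CpG samples, from 2.68 to 3.31 log2 CPM. Zfp945 (-1.50 ± 0.14, SE) and Zfp758 (-1.38 ± 0.19, SE) belong to the chromosome 17 cluster described below. The 9 remaining genes that fell had a log2FC from -1.29 to -1.09. One of them, Zfp652 (-1.13), was named after its values were seen. Of its exonic bases, 19.3% lie opposite other exons, and 17.4% of its 75-base sequences occur in other genes. The opposite genes include Abi3, which fell further (log2FC -2.64, FDR = 6.99e-07), so the value of Zfp652 is uncertain.

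**Figure D3:**
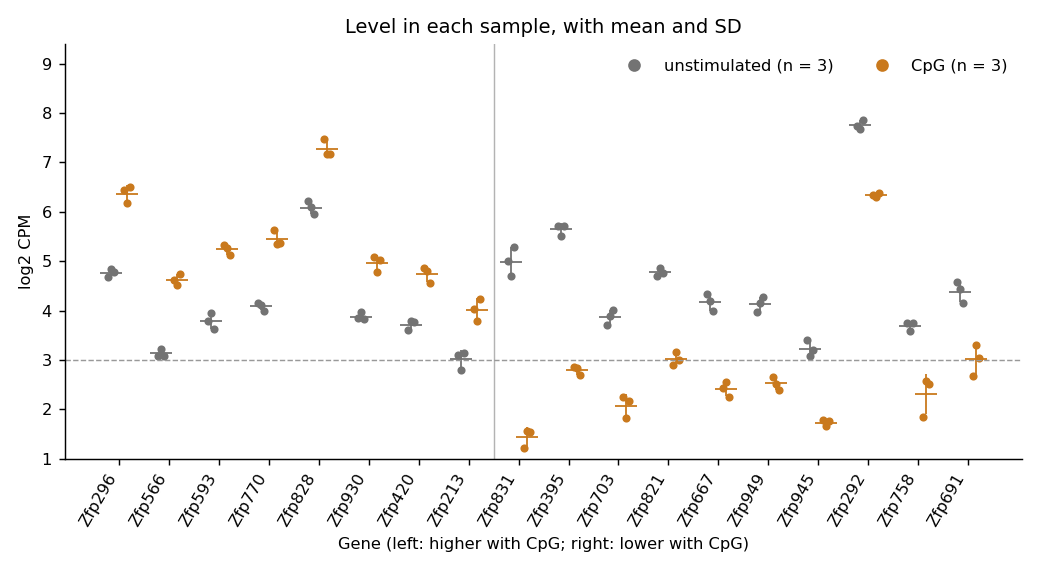
Level of the 8 genes that rose and the 10 with the largest falls in each sample (y axis, log2 CPM; points are samples, 3 per group, with the mean and SD), in gray for unstimulated and orange for CpG. The dashed line is the limit of 3 on the unstimulated mean. The genes were picked among those without overlap between the groups, so the 2 colors do not overlap in any gene. Zfp831 shows the largest gap.

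Levels of the 177 genes in unstimulated cells went from 3.0 to 9.26 log2 CPM with a median of 4.57, and 55 of them were below 4. Zfp106, an RNA-binding protein needed for the survival of motor neurons, had the most reads of all. Its means were 9.26 ± 0.08 log2 CPM (SD, n = 3) unstimulated and 9.26 ± 0.13 log2 CPM with CpG, and the groups overlapped. For Zfp106, 26.1% of exonic bases lie opposite another gene's exons. The order of levels per length depended on the length used. Per kb of the transcript chosen for each gene, Zfp740 was at 7.32 log2 CPM per kb, Zfp622 at 6.72, and Zfp106 at 6.07. Per kb of all exons of the gene, Zfp740 was at 4.95 log2 CPM per kb, Zfp622 at 5.37, and Zfp106 at 5.88. Zfp740 fell with CpG, from 7.25, 7.30, and 7.34 to 6.25, 6.17, and 6.21 log2 CPM (log2FC -1.09 ± 0.06, SE, FDR = 1.32e-07).

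At the limit itself, Zfp74, Zfp213, and Zfp760 were just inside, with unstimulated means of 3.0, 3.01, and 3.02 log2 CPM. Just outside were Zfp810 at 2.97, Zfp771 at 2.95, and Zfp932 at 2.93 log2 CPM. With CpG the first 3 had means of 2.59, 4.02, and 2.31 log2 CPM, and the second 3 had 0.78, 3.93, and 3.83 log2 CPM. CpG took 21 of the 177 genes below 3, of which 10 passed as fallen. In the other direction, 11 of the 155 Zfp genes under the limit reached it with CpG, and 4 of these rose by a log2FC over 1. The largest rises among the 4 were those of Zfp783 and Zfp202 (both 1.70) and Zfp661 (1.47), all outside the rule. Of the 155, 94 could be tested, and 20 had no reads in either group by their group means.

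Of a list of 34 Zfp genes with a role known from other work, 31 were expressed by the rule. By FDR, 10 were higher with CpG, 14 were lower, and 7 did not pass. Of all genes tested, 37.6% were higher, 36.7% were lower, and 25.7% did not pass. Zfp57, an imprinting factor, was at the level of no reads in all samples, Zfp532 was under the limit, and Zfp638 is not analysed here.

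In B cells, the best known of them is Zfp318, which permits the long heavy chain transcripts from which IgD is made. Its values were 7.79, 7.85, and 7.87 log2 CPM without and 8.11, 8.23, and 8.29 log2 CPM with CpG. The rise was small but larger than the spread between replicates, at 0.37 ± 0.06 on the log2 scale (SE, FDR = 0.000381). Zfp91, a ubiquitin ligase linked to noncanonical NF-κB signaling, had -0.18 ± 0.06 (SE, FDR = 0.0198), which did not pass when CpG replicate 3 or unstimulated replicate 1 or 3 was left out (FDR = 0.0798, 0.0567, and 0.0706).

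Members that act on ribosomes moved in different directions. While Zfp593 rose, Zfp622, an assembly factor of the pre-60S subunit in the cytoplasm, fell from 8.33, 8.30, and 7.97 to 7.05, 7.29, and 6.86 log2 CPM. This was a log2FC of -1.14 ± 0.12 (SE, FDR = 1.33e-05), in a gene that was among the most abundant. Zfp598, the ubiquitin ligase that marks collided ribosomes, was higher, at 7.44, 7.24, and 7.26 log2 CPM with CpG against 6.31, 6.44, and 6.44 log2 CPM (log2FC 0.91 ± 0.07, SE, FDR = 1.70e-06).

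Zfp592 and Zfp687, partners in the Z3 complex, which binds chromatin with Zmynd8, were both lower. Zfp592 went from 7.92, 7.90, and 7.84 to 6.77, 6.92, and 6.70 log2 CPM (log2FC -1.09 ± 0.07, SE, FDR = 3.53e-07), and Zfp687 had a log2FC of -0.54 (FDR = 0.000119). Zfp335, a component of histone methyltransferase complexes that thymocytes need in order to mature, had -0.80 (FDR = 2.18e-06), although 28.3% of its exonic bases lie opposite other genes and its neighbor Pcif1 was also lower (-0.42). Zfp608, a repressor of Rag genes in thymocytes, had -0.61 (FDR = 0.000274), and its relative Zfp609 had -0.11 and did not pass (FDR = 0.209). Of these 5 genes, Zfp592 alone changed by over 1 log2 unit.

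Zfp410, an activator that is dedicated to the Chd4 gene, measured 5.20, 5.34, and 5.32 log2 CPM unstimulated and 4.59, 4.88, and 4.68 log2 CPM with CpG (log2FC -0.57, FDR = 0.000246). Chd4 itself had a log2FC of 0.10 and did not pass (FDR = 0.338). Of the broadly acting promoter factors, Zfp148 was lower (-0.42, FDR = 9.03e-05) and Zfp143 higher (0.31, FDR = 0.00206). Zfp281, Zfp384, Zfp217, and Zfp131 had log2FC values from -0.09 to 0.16 and did not pass. Zfp131 passed when CpG replicate 2 was left out (0.19, FDR = 0.021) and when replicate 2 of both groups was (0.20, FDR = 0.0376).

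Zfp451, a SUMO ligase, was higher (0.48, FDR = 9.89e-05), as were Zfp346, which binds double-stranded RNA (0.57, FDR = 0.000187), the nucleolar protein Zfp330 (0.23, FDR = 0.00757), Zfp706 (0.36, FDR = 0.000268), and the splicing-associated Zfp830 (0.31, FDR = 0.00595). Zfp207, a mitotic spindle protein, was lower (-0.26, FDR = 0.00147). Among these the largest change was 0.57, so none came near the threshold of 1. Zfp644, a partner of G9a, and Zfp574 had -0.23 and -0.21 with an FDR of 0.0212 and 0.0391, and neither passed when CpG replicate 2 or 3 or unstimulated replicate 1 or 2 was left out (FDR from 0.0558 to 0.0659 and from 0.085 to 0.149), or when replicate 2 of both groups was (FDR = 0.105 and 0.244).

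KRAB genes had the lower levels, and more genes were lower than higher with CpG in both classes. The median level per kb of transcript was 2.37 log2 CPM per kb in the 88 KRAB genes and 3.56 log2 CPM per kb in the 88 others. Per kb of all exons, the medians were 2.04 and 2.84 log2 CPM per kb. Among KRAB genes, 3 rose and 7 fell, 14 were higher and 39 lower at an FDR under 0.05, and the median log2FC was -0.25. Among the others, 5 rose and 12 fell, 25 were higher and 38 lower, and the median log2FC was -0.10. As shares, 3.41% of KRAB and 5.68% of non-KRAB genes rose, and 7.95% and 13.6% fell. Higher were 15.9% and 28.4%, and lower were 44.3% and 43.2%. For the 7791 other genes with an unstimulated mean of at least 3, 11.7% rose, 14.8% fell, 37.9% were higher, and 41.8% were lower. The KRAB and non-KRAB groups are described and were not tested against each other, since the genes of a cluster are near copies. Among the expressed genes, no KRAB gene had a log2FC below -1.75, and both genes past -2 were non-KRAB. This did not hold under the limit on the unstimulated mean. There, the KRAB genes Zfp30 (-2.59), Zfp14 (-2.26), Zfp810 (-2.19), and Zfp324 (-2.08) fell past -2, as did the non-KRAB gene Zfp41 (-2.51).

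Several KRAB genes with a known target were expressed. Zfp445, which keeps imprints, was lower by a small amount (-0.25, FDR = 0.00709), and Zfp568, which represses a placental promoter of Igf2, was higher (0.50, FDR = 0.00101). Zfp809, which silences murine leukemia viruses through their primer binding site, had 0.16 and did not pass (FDR = 0.218). Of all 8 SCAN genes, 2 were higher and 5 lower at an FDR under 0.05, against 37.6% and 36.7% of all genes tested. One of the lower ones was Zfp263, in which the profile found no KRAB A box (-0.21, FDR = 0.00786).

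Correlations of the change with features of the genes were weak. Across the genes, Spearman's rho of log2FC was -0.05 with the number of fingers and -0.08 with protein length (n = 176), and -0.04 with the unstimulated level (n = 177). With the GC content of the transcript it was 0.07. These are correlations across genes of the same 6 libraries, and genes are not independent replicates. The 30 genes with under 5 fingers had 7 that fell (23.3%), among them Zfp831, Zfp395, Zfp622, and Zfp703. Of the 52 with 5 to 9 fingers 5 fell (9.62%), and of the 94 with 10 or more 7 fell (7.45%). Of all genes tested 15.3% fell, and of the 7791 other genes with an unstimulated mean of at least 3, 14.8% did.

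By position, 90 of the 177 genes lay in 25 clusters of at least 3 Zfp genes with no more than 500 kb between neighbors, and 87 lay outside. Within clusters 4 rose (4.44%) and 6 fell (6.67%), and outside 4 rose (4.60%) and 13 fell (14.9%). Among the 7791 other genes with an unstimulated mean of at least 3, 11.7% rose and 14.8% fell. The cluster with the most expressed members spans chr17:21008903-23599487 and holds 20 Zfp genes, of which 12 were expressed, all with a KRAB A box. At an FDR under 0.05, 7 of the 12 were lower with CpG and 2 were higher, with a median log2FC of -0.62. The shares over all genes tested were 36.7% lower and 37.6% higher.

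Next to each other within it, over 1.16 Mb (chr17:21707741-22867134), lay 6 members that were all lower with CpG: Zfp760, Zfp942, Zfp943, Zfp944, Zfp758, and Zfp945. The expressed member before them, Zfp52, was also lower (log2FC -0.66, FDR = 0.000194), so the start of the run at Zfp760 is a choice. Among the 6, the fall was smallest in Zfp942, from 3.71, 3.64, and 3.87 to 3.01, 3.20, and 3.27 log2 CPM (log2FC -0.58 ± 0.12, SE, FDR = 0.0012). Zfp943 went from 3.54, 3.56, and 3.53 to 2.38, 2.73, and 2.56 log2 CPM (log2FC -0.99 ± 0.13, SE, FDR = 4.68e-05). Zfp944 went from 3.06, 3.10, and 2.90 to 1.92, 1.37, and 1.90 log2 CPM (log2FC -1.29 ± 0.18, SE, FDR = 8.29e-05). These values separate the groups in each gene.

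Zfp758 went from 3.75, 3.58, and 3.75 to 1.84, 2.57, and 2.52 log2 CPM, with CpG replicate 1 the lowest (FDR = 8.25e-05). Zfp945 had the largest fall of the 6, from 3.41, 3.08, and 3.20 to 1.78, 1.66, and 1.76 log2 CPM (FDR = 5.44e-06). At most 4.76% of the 75-base sequences of any of the 6 occur in other genes, so most of their reads can be told apart. Zfp genes of the cluster with lower levels did not all follow. Of 5 that could be tested, 3 were lower and 1, Zfp54, was higher at an FDR under 0.05 (log2FC 1.26). Zfp54 was named after its value was seen.

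Of the 6 genes, 4 form 2 pairs that start back to back. Zfp942 (minus strand) and Zfp943 (plus strand) start 87 bases apart, and Zfp944 (minus strand) and Zfp758 (plus strand) start 52 bases apart. Promoters of 146 expressed Zfp genes were found in the RefSeq table (GRCm38.p6), and the 250 bases before the start were aligned in all 10585 pairs. Only 3 pairs were at least 80% identical: Zfp758 and Zfp943 (93.8%), Zfp747 and Zfp764 (85.2%), and Zfp942 and Zfp944 (81.5%). The search for like promoters was made after the values were seen.

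The bases between the annotated starts are shown because both pairs share them. They are given on the plus strand, at chr17:21962465-21962551 and chr17:22361401-22361452, with the E-box CACGTG in capitals. The 52 bases of the second pair are all contained, without a mismatch, in the 87 of the first.
Zfp942 and Zfp943: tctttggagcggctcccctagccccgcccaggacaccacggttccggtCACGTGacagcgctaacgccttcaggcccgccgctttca
Zfp944 and Zfp758: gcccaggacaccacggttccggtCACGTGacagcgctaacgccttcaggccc

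All 4 genes with this shared stretch were lower with CpG, by log2FC values of -0.58 and -0.99 in the first pair and of -1.29 and -1.38 in the second. A like promoter did not always go with a like change, however. In the third pair, Zfp747 was higher with CpG (from 4.58, 4.63, and 4.47 to 5.09, 5.01, and 5.08 log2 CPM, log2FC 0.50, FDR = 0.000224), while Zfp764 had -0.28 and did not pass (FDR = 0.0761). An E-box was found in 9.59% of the 146 promoters (250 bases before to 50 after the start), against 10.8% of the 8400 promoters of genes tested. The match is a description of the letters, and binding was not measured.

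On chromosome 7, the cluster at chr7:29768552-30169750 held 15 Zfp genes, of which 9 were expressed, and both directions were seen side by side. Zfp566 and Zfp420 rose, and Zfp568 (0.50) and Zfp146 (0.54, FDR = 1.45e-05) were higher by less. Zfp260, which lies next to Zfp566 on the other strand, was lower, going from 5.18, 5.13, and 5.48 to 4.30, 4.47, and 4.29 log2 CPM (log2FC -0.91 ± 0.11, SE, FDR = 2.74e-05). Zfp74 had -0.41 (FDR = 0.036), which did not pass without CpG replicate 2 or 3 or unstimulated replicate 1 or 3 (FDR from 0.0589 to 0.13). The median log2FC of the 9 was 0.16.

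**Figure D4:**
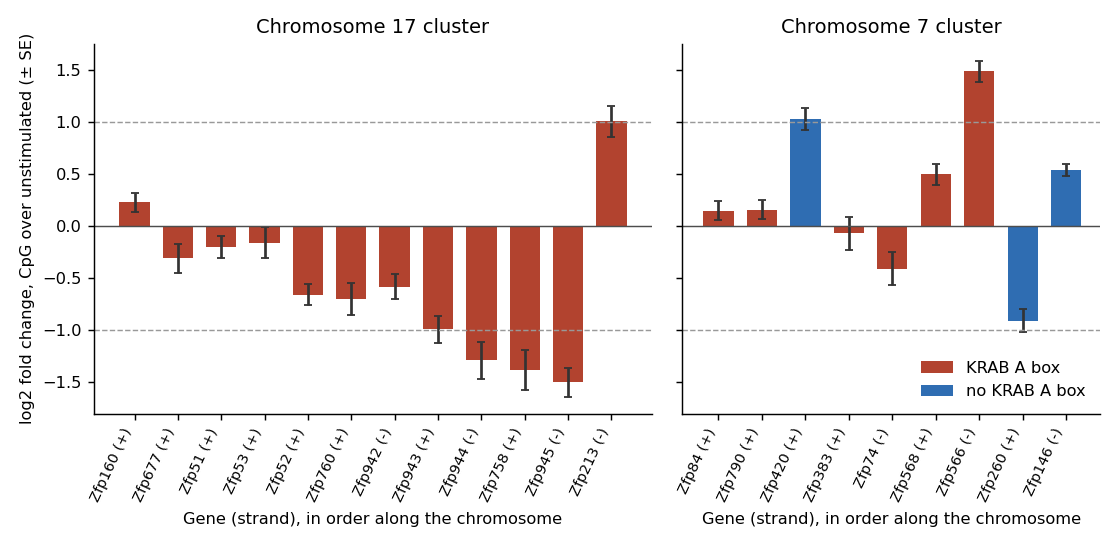
Log2FC (y axis, CpG over unstimulated, bars with the limma SE, n = 3 samples per group) of the expressed Zfp genes of the chromosome 17 and chromosome 7 clusters with the most members, in order along the chromosome, with the strand in parentheses and the color showing a KRAB A box. On chromosome 17 the genes from Zfp677 to Zfp945 are all below 0, with Zfp945 lowest at -1.50. On chromosome 7 genes above and below 0 lie side by side.

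The chromosome 6 cluster (chr6:47819266-48623227) had 7 expressed members, of which 4 were lower and 0 higher at an FDR under 0.05. For this and the next cluster, the shares over all genes tested were 36.7% lower and 37.6% higher. Zfp212 went from 5.46, 5.23, and 5.26 to 4.09, 4.31, and 4.04 log2 CPM (log2FC -1.17), and Zfp398 from 3.74, 3.27, and 3.37 to 2.46, 2.02, and 2.07 log2 CPM (log2FC -1.28). Their neighbors Zfp282, Zfp777, and Zfp746 had log2FC values from 0.03 to 0.08 and did not pass. On chromosome 5, all 3 members of a cluster were lower: Zfp113 (-0.49), Zfp157 (-0.80), and Zfp68 (-0.85). In a chromosome 13 cluster of 7 members, none passed a log2FC of 1 in either direction.

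Among other promoter motifs, searched on both strands of the same 300 bases, the GC box (GGGCGG) was found in 54.1% of the expressed Zfp genes and in 65.1% of genes tested. The CCAAT box (CCAAT) was found in 47.9% against 39.4%. For the AP-1 motif (TGACTCA) the shares were 4.11% and 3.20%, for the CRE (TGACGTCA) 3.42% and 3.40%, for the ETS motif (CCGGAAGT) 11.6% and 9.20%, and for the NF-κB motif 8.22% and 10.1%. An NF-κB match may overlap a GC box. In the 5 promoters of genes that rose and the 16 of genes that fell that were in the table, AP-1 and CRE letters were in 0, and NF-κB letters were in 0 and 2. CG dinucleotides were fewer, with a median of 16.5 per promoter against 21 in genes tested and 7 in all promoters.

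Genes linked to KRAB repression were taken from a list of 32. The list also holds general factors of histone and DNA methylation, such as Suv39h2 and Dnmt3b. Of the 32, 31 were in the tables. Of these, 6 rose and 1 fell, and 19 were higher and 7 lower at an FDR under 0.05, with a median log2FC of 0.45, against 15.8% and 15.3%, and 37.6% and 36.7%, of all genes tested. Trim28, the corepressor that KRAB binds, went from 8.19, 8.02, and 8.10 to 8.67, 8.39, and 8.59 log2 CPM (log2FC 0.45 ± 0.08, SE, FDR = 0.000653). Setdb1, the H3K9 methyltransferase that Trim28 recruits, was also higher (0.60, FDR = 0.000538).

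The one gene of the list that fell was Atf7ip, which stabilizes Setdb1 in the nucleus. It measured 7.40, 7.50, and 7.37 log2 CPM unstimulated and 5.66, 5.81, and 5.95 log2 CPM with CpG, without overlap (log2FC -1.62 ± 0.08, SE, FDR = 8.99e-08). Within the HUSH complex and its partners, Pphln1 (1.43) and Morc2a (1.01) rose, while Mphosph8 was lower (-0.33, FDR = 0.0032). Suv39h2 (1.65), Dnmt3b (1.36), Hdac2 (1.22), and Sumo2 (1.15) also rose. Their medians moved the other way from those of the KRAB genes, but no test of one list against the other was made.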

How the data were processed

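Splenic B cells purified with beads by negative selection were sequenced as mRNA (6 libraries, 3 per group; labels give condition, replicate, and sex). Per the labels and methods, the authors used Trim Galore 0.6.5, STAR 2.6.1a on mm10, and featureCounts (Subread 2.0.1), then quantile normalized the counts and ran voom. Deposited log2 CPM is the unit, in which the group mean of a gene without reads is the value of 0.5 reads (-5.15). In 6901 genes both group means were within 0.01 of it. All 6 values were at it in 5459 of them, and in the others they differed by replicate number with the same values in both groups, so single low values carry a shift that the difference between groups does not. A change in total RNA per cell cannot be seen after this step.

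CpG was set against unstimulated in limma 3.58.1 (R 4.3.3; lmFit, then eBayes with trend) on the deposited values of 11233 genes above 10 reads in at least 3 samples, with Benjamini-Hochberg adjustment over all of them. As the labels name no separate mouse for each culture, p values measure only the spread between these samples. An exact permutation test of 3 against 3 cannot go below 0.1 and was not used. Counts of 10 and 3 reads cover counting error only. Members and lists were chosen with earlier results of these data known. Genes named by rule are those that rose, the 10 with the most negative log2FC among those that fell without overlap, the 3 highest, the 3 on each side of the limit, 3 risen genes outside it, and the listed genes with known roles; genes described for their cluster, promoter, or level per kb were chosen after their values were seen. Domains were found in GENCODE M21 translations (KRAB by a pyhmmer 0.12.3 profile of 212 windows, E under 0.001). A BTB domain was not searched.

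Deviations from the group means correlated at 0.435, 0.224, and 0.300 between samples with the same replicate number and from -0.281 to 0.0279 between others. By this check the numbers pair the samples, although the normalization over more libraries could also give it. Alternatives that need counts were not run.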

Additional observations from a re-analysis of the deposited data

How the results depend on the processing

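Counts of members that rose (8) and fell (19) at a log2FC of 1 came to 4 and 8 when limma tested against a log2FC of 1 itself, which also left 4 higher and 8 lower in place of 39 and 78. Leaving out 1 sample gave 7 to 9 that rose, 19 to 20 that fell, 35 to 43 higher, 71 to 79 lower, and a median log2FC from -0.20 to -0.17. Without replicate 2 of both groups (chosen after seeing the data), the counts were 9, 21, 37, and 73 and the median -0.16. With the replicate number as a block, the counts were 8, 19, 40, and 82, no call at a log2FC of 1 changed, and 5 members were gained at an FDR under 0.05 and 0 lost. The block changed no other call. A limit of 4 on the unstimulated mean (122 genes) gave 3 that rose and 25 higher. A limit on the CpG mean gave 9 that fell and a median of -0.06. Without the members that share over 10% of their sequence or overlap the other strand (148 genes left, an alternative chosen after seeing the data), 4 rose. The cause was not tested. Of the 27 members called, 24 kept their call in all fits but the test against 1. Zfp213, Zfp358, and Zfp420 went under a log2FC of 1 on the log2(CPM + 1) scale (0.93, -0.95, and 0.97). No direction reversed in 715 refits of 55 named genes, and 21 of these, in 4 genes, no longer passed. The corepressor list had 5 to 6 that rose without 1 sample.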

Other observations

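Outside the rule, the largest change among all Zfp genes was that of Zfp811, a gene chosen after its values were seen. It was at -2.31, -1.34, and -2.41 log2 CPM in unstimulated samples, about the value of 3 reads (-2.34), and at 3.01, 2.47, and 1.87 log2 CPM with CpG. All CpG samples were higher, but the gene had a mean under 3 in both groups. Zfp30, Zfp14, and Zfp382, in the chromosome 7 cluster with Zfp566, were lower with CpG by log2FC values of -2.59, -2.26, and -1.56. Zfp82, Zfp940, and Zfp27 of the same cluster were higher by 1.22, 0.89, and 0.67. Each has a KRAB A box and had an unstimulated mean under 3, and all were chosen after their values were seen. With CpG, Zfp14 was low and spread widely, at -2.15, -3.27, and -0.64 log2 CPM.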
